A study of Bubalus bubalis with 6 samples.

Results

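The genes described here encode members of the WNT, TGF-beta, FGF and Notch signalling pathways: ligands, receptors, secreted modulators and SMAD proteins. They were chosen by gene name alone, as probes whose names begin with the symbols of these families, with ACVR2A, INHBA and BMP4 left out. The choice gave 51 genes of the 7918 that the array names, and 159 probes of its 177440. All 51 symbols occur among the RefSeq genes of buffalo assembly NDDB_SH_1, a list consulted here for symbols alone. The 51 genes comprised 8 WNT ligands, 3 frizzled receptors, 5 secreted WNT modulators, 10 TGF-beta family ligands, 6 receptors of that family, 7 SMADs, the ligand trap FST, the receptor-associated protein TGFBRAP1, 5 FGF ligands, 3 FGF receptors and the Notch ligands JAG1 and DLL4. No probe carried the name of a Notch receptor or of the WNT co-receptors LRP5 and LRP6.

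The samples were sperm DNA of 3 subfertile bulls (numbered 1, 4 and 5 in the labels) and of 3 high-fertile bulls (numbered 2, 3 and 5) of the water buffalo, Bubalus bubalis. One array was hybridised per bull. DNA came from cryopreserved semen of both groups and was sheared by sound, and an antibody that binds 5-methylcytosine was used to enrich its methylated fragments (methylated DNA immunoprecipitation, meDIP). The enriched DNA (IP) carried the dye Cy5 and input DNA of the same bull carried Cy3, with no dye swap. The sources used here give neither the breed and age of the bulls nor the measure by which they were classed as subfertile or high-fertile. The p-values below measure the spread between these 6 bulls.

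The values are log2(IP/input), centred so that the median probe of each array lies at 0. A value below 0 means that a stretch of DNA was bound less by the antibody than the median probe of that array, and a value above 0 that it was bound more. Such a value is not a percentage of methylated cytosines. Since the dyes were never swapped, the binding of the antibody, the number of CpGs in a fragment and a dye effect of the probe cannot be told apart in a probe's level against the array median. A dye effect common to all arrays cancels in a difference between bulls.

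WNT and TGF-beta family proteins, FGFs and Notch ligands carry signals between cells. WNT ligands bind frizzled receptors, while TGF-beta, BMP and activin ligands bind receptor kinases that phosphorylate SMAD proteins, which then enter the nucleus. FGF ligands act through receptor tyrosine kinases, and Notch ligands are membrane proteins that act on the neighbouring cell. In the testis these pathways take part in the growth and differentiation of germ cells and Sertoli cells. Mature sperm are largely silent in transcription, and in mammals the CpG-rich promoters of many developmental genes lack methylation in sperm DNA.

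Of the 159 probes, 73 could be tested, meaning that on each of the 6 arrays the input signal stood well above background and the spot had no flag for uneven signal. This was 45.9% of the probes of these genes, against 38.7% of all named probes and 62.4% of all probes. The tested probes belonged to 36 genes, of which 22 had 1 tested probe, 5 had 2 and 9 had at least 3. The other 15 genes had no tested probe: WNT8A, DKK3, BMP10, GDF9, GDF10, TGFB3, ACVR1, ACVR1C, BMPR1A, SMAD1, SMAD4, FGF2, FGF11, FGFR2 and FGFR3. The 86 untested probes had a median GC content of 41.7%, and 43 of them (50%) held no CpG. The 73 tested probes had a median GC content of 51.7% and a median of 2 CpGs, and 6 of them (8.22%) held none. The account below therefore covers mainly the probes of these genes with the higher GC content, within the 35% to 53.3% that all probes of the array span.

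The probes on which the results turn are printed 5′ to 3′ as the files give them, each 60 bases long, with every CpG in capitals because the CpG is the dinucleotide whose cytosine the antibody recognises when methylated. Which genome build the coordinates refer to is not stated in the labels or files. The design text names both Bos taurus and Bubalus bubalis, and the coordinates place FGFR1 on chromosome 27. Chromosome numbers are given as printed and need not be those of the buffalo. Whether a probe lies in a promoter, an exon, an intron or a CpG island is not recorded there either. The first 3 are the probes at which all subfertile bulls lay on the same side of all high-fertile bulls.
JAG1 chr13:3914733-3914792: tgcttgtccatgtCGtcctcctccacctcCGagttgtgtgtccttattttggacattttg
WNT2 chr4:53163452-53163511: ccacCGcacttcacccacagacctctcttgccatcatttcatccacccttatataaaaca
FGF1 chr7:38083780-38083839: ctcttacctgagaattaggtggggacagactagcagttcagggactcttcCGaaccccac

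The next 3 lay above the array median on average over both groups, and come from a frizzled receptor, a WNT ligand and a Dickkopf-like protein.
FZD7 chr2:95158594-95158653: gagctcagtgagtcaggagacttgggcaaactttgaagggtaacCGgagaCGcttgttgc
WNT7A chr22:59871969-59872028: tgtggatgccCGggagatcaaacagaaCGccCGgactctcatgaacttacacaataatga
DKKL1 chr18:55792572-55792631: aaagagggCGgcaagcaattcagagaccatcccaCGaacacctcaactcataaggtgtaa

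The last 5 had the lowest levels of the tested probes of these genes. Both SMAD7 probes overlap and share part of their sequence.
SMAD7 chr24:50297527-50297586: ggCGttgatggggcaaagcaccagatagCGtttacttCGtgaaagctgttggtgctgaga
SMAD7 chr24:50297562-50297621: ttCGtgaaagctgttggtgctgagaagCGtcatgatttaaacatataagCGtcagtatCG
FGF14 chr12:76541565-76541624: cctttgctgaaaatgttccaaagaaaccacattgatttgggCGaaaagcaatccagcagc
FZD1 chr4:7609712-7609771: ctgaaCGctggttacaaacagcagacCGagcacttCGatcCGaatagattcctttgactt
JAG1 chr13:3958956-3959015: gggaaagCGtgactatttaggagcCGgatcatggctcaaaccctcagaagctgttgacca

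The arrays were parted here into 2 scan sessions by the dates in the file headers. The first session is the earliest date, and the later session pools more than 1 later date. Each session held bulls of both groups: subfertile bull 4 with high-fertile bulls 2 and 3 in the first, and subfertile bulls 1 and 5 with high-fertile bull 5 in the later one. The IP signal was well above background at 37.6% to 58.6% of probes on the 3 arrays of the first session and at 76.5% to 85.2% on the 3 of the later session. Across the 73 tested probes of these genes, the correlation between 2 bulls of different sessions ranged from 0.17 to 0.41. Within the later session it ranged from 0.79 to 0.84, and within the first it was 0.17, 0.47 and 0.47. These values are a description over probes that overlap in part. The header of subfertile bull 1 names the software's CGH protocol, and those of the other 5 arrays its ChIP protocol. Each comparison of the groups was therefore repeated with a term for the session, and the estimates nearest to a difference are also given for each session alone.

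No gene of these pathways passed the test for a difference between subfertile and high-fertile sperm. With limma and Benjamini-Hochberg adjustment, 0 of the 73 probes passed an adjusted p of 0.05 (0% of all 110686 tested probes passed). The same count was 0 of the 9 gene regions, each the mean over at least 3 tested probes of 1 gene (0% of 736 passed). With the scan session as a block, limma again called 0 of the 73 probes and 0 of the 9 gene regions. At an unadjusted p under 0.05 there were 3 probes (1.84% of all tested probes passed) and 0 gene regions (0.815% of all passed). The test recovered 98% of simulated differences of 2 on the log2 scale for gene regions and 40% for single probes, so a difference of that size at a single probe could be missed. The simulated arrays held no variation between sessions, and 200 of the 736 gene regions were shifted. Recovery in these data may therefore be lower.

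The 95% intervals of the 9 gene regions come from the fit without a session term and are not adjusted for the number of regions. They ran from -0.92 to 0.92 on the log2 scale at their widest, and all 9 lay within a difference of 1, that is within a doubling of IP over input in either direction. The median difference, subfertile minus high-fertile, was -0.11 over the 9 gene regions and 0.08 over all 736. Of the 73 probes, 3 had all bulls of one group beyond all of the other (5.78% of all tested probes did), 2 with the subfertile bulls higher (3.2% of all) and 1 with them lower (2.58% of all). Of the 9 gene regions 0 did (2.99% of all).

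**Figure D1:**
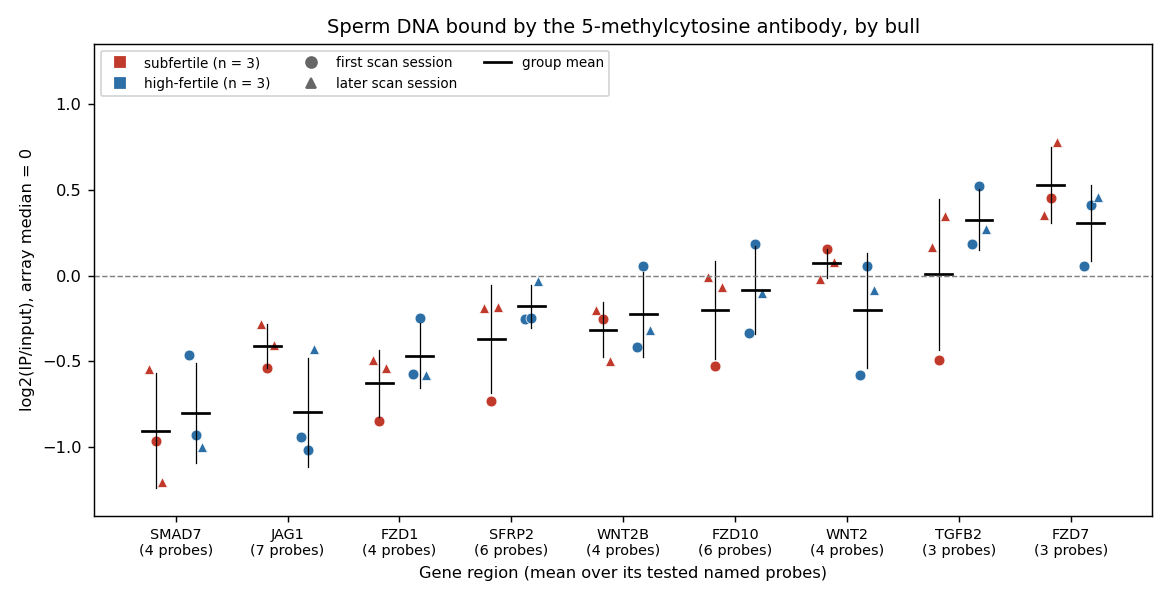
Mean log2(IP/input) of each of the 9 gene regions with at least 3 tested probes, with 1 point per bull (subfertile left, high-fertile right of each gene), symbols for the scan session and a bar for each group mean; the array median is 0. SMAD7, JAG1, FZD1 and SFRP2 lie below 0 in all 6 bulls, FZD7 lies above 0 in all 6, and the 2 groups overlap at every gene.

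Among the WNT ligands, WNT2 and WNT2B had enough named probes for a gene region. WNT2, a ligand that acts through beta-catenin, had values of -0.02, 0.15 and 0.08 in subfertile bulls 1, 4 and 5 and of -0.58, 0.06 and -0.09 in high-fertile bulls 2, 3 and 5. High-fertile bull 2 was the lowest of the 6, and the other high-fertile values lay among or close to the subfertile ones. The difference was 0.27 (SE 0.23, limma adjusted p = 0.999863). WNT2B, a close relative of WNT2, had -0.20, -0.25 and -0.50 in the subfertile and -0.42, 0.06 and -0.32 in the high-fertile bulls, a difference of -0.09 (SE 0.22). The ranges of both groups overlapped.

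A single WNT2 probe, printed above, was higher in all subfertile bulls. It had 0.42, 0.70 and 0.70 in subfertile bulls 1, 4 and 5 and -0.33, 0.38 and 0.28 in high-fertile bulls 2, 3 and 5. Its difference was 0.50 (SE 0.32, limma adjusted p = 0.999984), and the gap between subfertile bull 1 and high-fertile bull 3 was small beside the spread within either group.

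All 3 frizzled receptors on the array, the membrane receptors to which WNT ligands bind, had a gene region. FZD7 had 0.35, 0.45 and 0.78 in the subfertile and 0.05, 0.41 and 0.46 in the high-fertile bulls. All 6 values were above the array median, and the difference between groups was 0.22 (SE 0.23). FZD1 had -0.49, -0.85 and -0.54 in the subfertile and -0.57, -0.25 and -0.58 in the high-fertile bulls, all below the median, with a difference of -0.16 (SE 0.22). FZD10 had -0.01, -0.53 and -0.07 in the subfertile and -0.33, 0.18 and -0.10 in the high-fertile bulls. The ranges of its groups overlapped, with a difference of -0.12 (SE 0.24).

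SFRP2, a secreted protein that binds WNT ligands, had -0.19, -0.73 and -0.18 in the subfertile and -0.25, -0.25 and -0.03 in the high-fertile bulls. Subfertile bull 4 was low and the others lay close together, giving a difference of -0.19 (SE 0.23). TGFB2, a TGF-beta ligand, had 0.17, -0.49 and 0.34 in the subfertile and 0.18, 0.52 and 0.27 in the high-fertile bulls. Here too subfertile bull 4 stood low: the difference was -0.32 (SE 0.27) over all bulls, -0.84 within the first session, where that bull is the sole subfertile one, and -0.02 within the later session.

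SMAD7, an inhibitory SMAD that blocks TGF-beta receptors, had -0.54, -0.97 and -1.20 in the subfertile and -0.47, -0.93 and -1.002 in the high-fertile bulls. The 2 groups spanned nearly the same range, with a difference of -0.11 (SE 0.26, limma adjusted p = 0.999863).

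The largest difference among the 9 gene regions was that of JAG1, a membrane ligand of Notch receptors. Its 7 tested probes averaged -0.28, -0.54 and -0.41 in subfertile bulls 1, 4 and 5 and -0.94, -1.02 and -0.43 in high-fertile bulls 2, 3 and 5. High-fertile bulls 2 and 3, both of the first session, lay below all others, while high-fertile bull 5 lay among the subfertile bulls. The group means were -0.41 ± 0.13 in the subfertile and -0.80 ± 0.32 in the high-fertile bulls (SD, n = 3 each), and the difference was 0.39 (SE 0.23, 95% interval -0.14 to 0.92, limma adjusted p = 0.999863). It was 0.26 with the session as a block, 0.44 within the first session and 0.09 within the later one. The IP signal was well above background at 18 of 21 spots in the subfertile and 15 of 21 in the high-fertile bulls.

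The JAG1 probe printed first was 1 of the 3 probes with an unadjusted p under 0.05. It had -0.29, 0.06 and -0.23 in subfertile bulls 1, 4 and 5 and -1.28, -0.63 and -0.66 in high-fertile bulls 2, 3 and 5. Every subfertile value was above every high-fertile one, and the difference was 0.71 (SE 0.31, limma adjusted p = 0.999984). The difference was 1.01 within the first session and 0.40 within the later one. The same probe gave 0.28 after a normexp background correction.

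The FGF ligands gave no gene region, since FGF1, FGF7 and FGF14 had 1 tested probe each. FGF1, a secreted growth factor that binds all FGF receptors, had 0.01, -0.06 and -0.13 in the subfertile and 0.18, 0.56 and 0.03 in the high-fertile bulls. All subfertile values were lower, by a margin that between subfertile bull 1 and high-fertile bull 5 was small beside the spread, and the difference was -0.32 (SE 0.30, limma adjusted p = 0.999984). The IP signal of this probe stood well above background in 1 of 3 subfertile and 2 of 3 high-fertile bulls. FGF14, an intracellular FGF that binds sodium channels, had -0.26, 0.05 and -1.01 in the subfertile and -1.01, -1.52 and -2.43 in the high-fertile bulls. It was the second of the 3 probes with an unadjusted p under 0.05 (difference 1.25, SE 0.43, limma adjusted p = 0.999984), but the IP signal of this probe stood well above background in 2 of 3 subfertile bulls and in no high-fertile bull. After normexp background correction its difference was -0.08, the opposite direction. The bound that the high-fertile arrays allow, 0.32, lies above the subfertile mean of -0.40, so no fold is given.

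The third of them was of GDF6, a BMP-like ligand of bone and joint development, and is named after its values were seen. It had -0.30, -1.51 and -0.98 in the subfertile and 1.06, -0.15 and -0.31 in the high-fertile bulls, a difference of -1.13 (SE 0.45, limma adjusted p = 0.999984), with IP signal well above background in 2 of 3 subfertile bulls and 1 of 3 high-fertile bulls. A second, unnamed spot on the array carries the same sequence, and there the values were -0.43, -0.25 and -0.50 in the subfertile and 0.06, -0.36 and -1.07 in the high-fertile bulls, a difference of 0.06. Over the 11 pairs of same-sequence spots with both spots tested, the mean over bulls of the absolute difference between spots had a median of 0.21 and reached 0.64 at this GDF6 pair. The difference between groups had the same sign at both spots in 8 of the 11 pairs.

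Most stretches of these genes are also covered by probes that carry no gene name. Joining each gene's named probes with the unnamed tested probes within 1000 bases gave 26 genes with a widened region of at least 3 probes, against 2665 over the whole array. This step was added after the data were seen. Between subfertile and high-fertile sperm, limma called 0 of the 26 after adjustment (0% of 2665 passed), and 0 at an unadjusted p under 0.05 (0.375% of all passed). In 0 of the 26 did the groups not overlap (1.84% of all). The 26 intervals all lay within a difference of 1, and the median difference was 0.05 over the 26 genes and 0.12 over all widened regions. With the session as a block limma called none of the 26, and the median difference was -0.06 over the 26 genes.

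**Figure D2:**
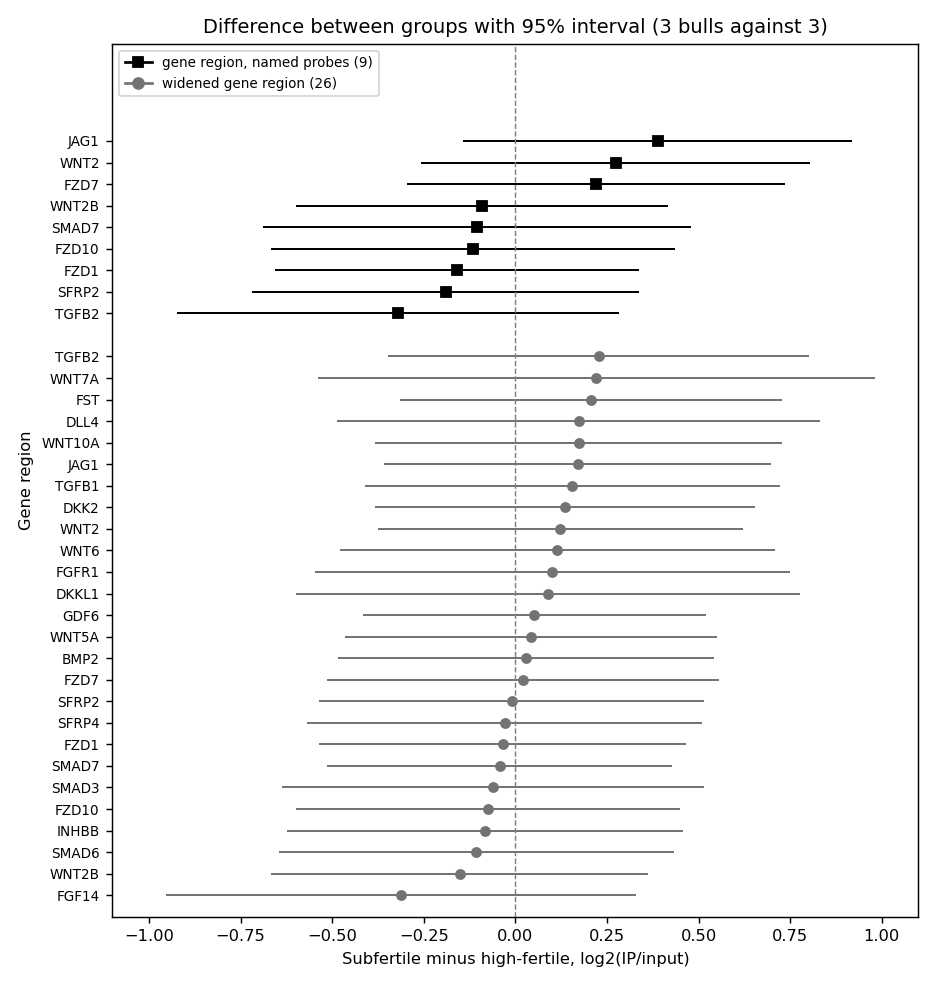
Difference in log2(IP/input), subfertile minus high-fertile, with its 95% interval, for the 9 gene regions of named probes (squares) and the 26 widened gene regions (circles), 3 bulls against 3. Every interval includes 0 and lies within -1 and 1; the JAG1 gene region has the highest estimate of the 9, at 0.39, and TGFB2 the lowest, at -0.32.

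Widening brought several of the estimates nearer to 0. JAG1, with 54 probes, had a difference of 0.17 (SE 0.23) in place of 0.39, FZD7 had 0.02 in place of 0.22, SFRP2 had -0.01 in place of -0.19 and WNT2 had 0.12 in place of 0.27. TGFB2, with 26 probes, had a difference of 0.23 (SE 0.25) in place of -0.32, so that its direction turned with the probes counted. The TGFB2 probes lie in 2 groups about the gene: the 2 probes of the first gave a difference of -0.42 and the 24 of the second one of 0.28.

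Both groups of bulls shared levels far from the array median at several genes. Over all 6 bulls, limma placed 15 of the 73 probes lower than the median after adjustment (15% of all tested probes were lower) and 1 higher (2.74% of all). Those lower were 3 probes of SMAD7, 2 each of FZD1, JAG1 and SFRP2, and 1 each of FGF14, TGFBRAP1, GDF6, WNT5A, WNT2B and WNT6. The probe placed higher was the FZD7 probe printed above. When each array was centred on its tested probes, which raises the median of all tested probes by 0.16, 10 were lower (8.03% of all) and 6 higher (7.35% of all). Of the 73, 22 lay below the median in all 6 bulls (21.9% of all tested probes did) and 1 above in all 6 (4.55% of all). The members' median level was -0.21, against -0.16 over all tested probes.

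Of the 9 gene regions, 4 lay below the array median in all 6 bulls (30.3% of all did) and 1 above in all 6 (1.49% of all). By the test, 3 were lower than the median (20.1% of all were) and 1 was higher (0.951% of all). SMAD7 had a mean of -0.90 ± 0.34 in the subfertile and -0.80 ± 0.29 in the high-fertile bulls (SD, n = 3 each), with a level over both of -0.85 (SE 0.13, limma adjusted p = 0.00609). JAG1 had a level of -0.60 (SE 0.12, adjusted p = 0.011). FZD1 had a mean of -0.63 ± 0.20 in the subfertile and -0.47 ± 0.19 in the high-fertile bulls, with a level of -0.55 (SE 0.11, adjusted p = 0.0123). These 3 genes, an inhibitor of TGF-beta signalling, a Notch ligand and a WNT receptor, had measured means below the array median in every bull. For SMAD7 the IP signal was well above background at 10 of 12 spots in the subfertile and 7 of 12 in the high-fertile bulls. For FZD1 it was so at 10 of 12 spots in each group.

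FZD7, with IP signal well above background at 7 of 9 spots in the subfertile and 5 of 9 in the high-fertile bulls, was the gene region above the median, with 0.53 ± 0.22 in the subfertile and 0.31 ± 0.22 in the high-fertile bulls (SD, n = 3 each) and a level of 0.42 (SE 0.11, adjusted p = 0.0308). The SMAD7 call held whichever bull was left out, the FZD1 and JAG1 calls were lost without high-fertile bull 2 or subfertile bull 5, and the FZD7 call was lost whichever of the 6 bulls was left out. With the session as a block all 4 calls held, and SFRP2 (adjusted p = 0.0269) and WNT2B (adjusted p = 0.0455), both at -0.27, joined the lower regions, giving 5 lower (38.3% of all were) and 1 higher (5.57% of all). Centring each array on the tested probes ended the call for FZD1 (-0.38, adjusted p = 0.0554), and with no filter on dim probes none of the 4 was called.

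The single probes show where in each gene these levels lie. The SMAD7 probe at chr24:50297527-50297586 had -0.99, -1.58 and -2.05 in the subfertile and -1.27, -1.36 and -0.97 in the high-fertile bulls, a level of -1.37 (adjusted p = 0.00611). The overlapping SMAD7 probe had -1.17, -1.02 and -1.21 in the subfertile and -0.61, -0.46 and -1.49 in the high-fertile bulls. In its case the IP signal was well above background in 2 of 3 subfertile bulls and in no high-fertile bull, and the bound that the high-fertile arrays allow, 0.35, lies above the array median. The high-fertile bulls therefore give this probe no level below the median, although the fit, which uses the measured values, called it lower.

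The FZD7 probe at chr2:95158594-95158653 had 0.74, 0.85 and 1.07 in the subfertile and 0.27, 1.15 and 0.97 in the high-fertile bulls, a level of 0.84 (adjusted p = 0.0123). Every measured value was above the median there, with IP signal well above background in 2 of 3 bulls of each group. The FZD1 probe had -1.13, -1.23 and -0.76 in the subfertile and -0.77, -0.29 and -1.46 in the high-fertile bulls, a level of -0.94 (adjusted p = 0.0117), with IP signal well above background in 2 of 3 subfertile bulls and 1 of 3 high-fertile bulls. The second JAG1 probe had -0.58, -1.02 and -1.06 in the subfertile and -1.14, -1.07 and -0.69 in the high-fertile bulls, a level of -0.93 (adjusted p = 0.0082), with IP signal well above background in 2 of 3 bulls of each group.

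**Figure D3:**
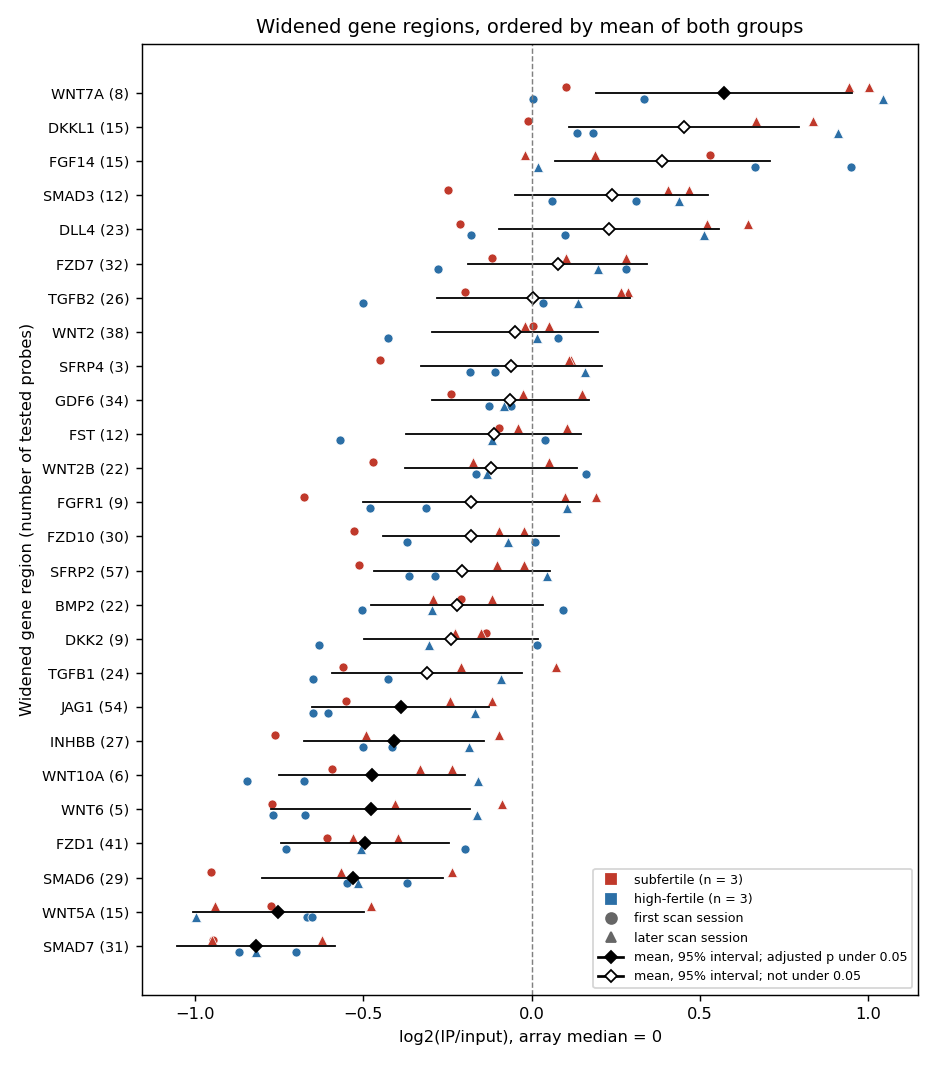
Log2(IP/input) of the 26 widened gene regions, 1 point per bull (subfertile drawn above high-fertile) with the mean of both groups and its 95% interval; the array median is 0, and filled diamonds mark an adjusted p under 0.05. SMAD7, at -0.82, and WNT5A, at -0.75, have all 6 bulls below 0, and WNT7A, at 0.57, has all 6 above 0.

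Of the 26 widened regions, limma placed 8 lower than the array median (25.6% of all widened regions were) and 1 higher (2.06% of all). The 8 were WNT5A, WNT6, WNT10A, FZD1, INHBB, SMAD6, SMAD7 and JAG1, and the higher one was WNT7A. In each of the 8 all 6 bulls lay below the median (32.2% of all widened regions did), and for WNT7A all 6 lay above it (2.4% of all). The median level of the 26 was -0.18, against -0.19 over all widened regions. By role, the medians were -0.30 over 6 WNT ligands, -0.18 over 3 frizzled receptors, -0.13 over 4 secreted WNT modulators, -0.22 over 5 TGF-beta family ligands and -0.53 over 3 SMADs, each a description of few genes.

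WNT ligands lay on both sides of the median. WNT5A, a ligand that acts mostly without beta-catenin, had -0.48, -0.77 and -0.94 in the subfertile and -0.67, -0.65 and -0.998 in the high-fertile bulls over 15 probes at chr22:46575797-46576390. Its level was -0.75 (SE 0.11, adjusted p = 0.00293), and the call held whichever bull was left out. WNT7A, which in the mouse patterns the female reproductive tract, had 1.002, 0.10 and 0.94 in the subfertile and 0.33, 0.004 and 1.04 in the high-fertile bulls over 8 overlapping probes at chr22:59871959-59872046. All 6 bulls lay above the median, those of the later session by much more than those of the first.

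The WNT7A level was 0.57 (SE 0.17, adjusted p = 0.0338). The call was lost without high-fertile bull 2, subfertile bull 1 or subfertile bull 5, and after normexp background correction (0.30, adjusted p = 0.129). WNT6 and WNT10A, ligands whose probes lie near each other on chromosome 2 of the printed coordinates, were below the median in all 6 bulls. Their levels were -0.48 (adjusted p = 0.0261) and -0.47 (adjusted p = 0.0214). The WNT6 call was lost without high-fertile bull 2 or 3 or subfertile bull 4 or 5, and the WNT10A call was lost whichever bull was left out except high-fertile bull 5.

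Among the secreted WNT modulators, DKKL1, a Dickkopf-like protein that in the mouse is found in the sperm acrosome, had 0.67, -0.01 and 0.84 in the subfertile and 0.18, 0.13 and 0.91 in the high-fertile bulls over 15 probes. Its level was 0.45 with an adjusted p of 0.0528, and with the session as a block the adjusted p was 0.000462. The 2 subfertile bulls and the high-fertile bull of the later session stood above the 3 bulls of the first session.

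SMAD6 and SMAD7, the inhibitory SMADs, were both lower than the median. SMAD7 had -0.62, -0.95 and -0.95 in the subfertile and -0.70, -0.87 and -0.82 in the high-fertile bulls over 31 probes, a level of -0.82 (SE 0.10, adjusted p = 0.00206) that was called whichever bull was left out. SMAD6 had -0.24, -0.95 and -0.57 in the subfertile and -0.55, -0.37 and -0.52 in the high-fertile bulls over 29 probes, a level of -0.53 (SE 0.12, adjusted p = 0.0125), and this call was lost without high-fertile bull 2 or subfertile bull 5. SMAD3, which carries TGF-beta and activin signals, had a level of 0.24 and did not pass in the fit without a block (adjusted p = 0.187). It was called higher with the session as a block (adjusted p = 0.0273) and when centred on the tested probes (0.40, adjusted p = 0.0226).

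Of the TGF-beta family ligands, INHBB, the beta B subunit of activin and inhibin, had -0.10, -0.76 and -0.49 in the subfertile and -0.41, -0.50 and -0.19 in the high-fertile bulls, a level of -0.41 (SE 0.12, adjusted p = 0.0326). This call was lost in the fits that left out high-fertile bull 2 or 3 or subfertile bull 4 or 5. BMP2, GDF6, TGFB1 and TGFB2 did not pass, with levels of -0.22, -0.06, -0.31 and 0.00495. FST, which binds and blocks activin, had -0.11 and did not pass.

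JAG1 had a level of -0.39 (SE 0.12, adjusted p = 0.0361) over its 54 probes, below the median in all 6 bulls, and was called in the fit without high-fertile bull 5 but in no other fit that left out a bull. DLL4, a Notch ligand of blood vessels, had 0.23 (adjusted p = 0.261). FZD7 had 0.08 over 32 probes, against 0.42 over its 3 named probes, so its call rested on the named probes. FGF14 had 0.39 (adjusted p = 0.0686) over 15 probes, whereas its named probe had -1.03 (adjusted p = 0.0149). The IP signal of that probe was well above background in 2 of 3 subfertile bulls and in no high-fertile bull. The bound that the high-fertile arrays allow there, 0.32, lies above the array median, so these bulls give it no level below the median. The other 7 widened regions, of WNT2, WNT2B, FZD10, DKK2, SFRP2, SFRP4 and FGFR1, had levels of -0.24 to -0.05 and did not pass. Measured means of named probes thus differed from those of the widened region in FZD7 and FGF14. Named and unnamed probes also had unlike means in some other genes, a contrast that was not tested. BMP2, FGFR1 and FST had 1 named probe each, set against 21, 8 and 11 unnamed ones. Named and unnamed probes had means of 0.42 and -0.25 in BMP2, 0.13 and -0.22 in FGFR1, and 0.14 and -0.14 in FST. They had 0.17 and -0.02 in TGFB2 and -0.61 and -0.03 in GDF6. In SMAD6 (-0.53 and -0.53) and SMAD7 (-0.85 and -0.81) they lay close together.

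With the session as a block, 11 of the 26 widened regions were lower (46.2% of all were) and 5 higher (10.2% of all). The lower ones then included TGFB1, SFRP2 and DKK2, and the higher ones DKKL1, DLL4, FGF14 and SMAD3. Centred on the tested probes, 6 were lower (15.9% of all) and 5 higher (11.1% of all), and 14 lay below 0, against 19 with the centring used above. DKKL1, DLL4, FGF14 and SMAD3 were again among the higher ones. The calls for JAG1 (adjusted p = 0.0679) and INHBB (adjusted p = 0.0707) were lost with that centring. After normexp background correction 10 were lower (32.3% of all) and 0 higher (0.6% of all). The share of higher and lower genes therefore depended on these steps, while SMAD7 and WNT5A were lower in each of the fits that left out a bull.

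**Figure D4:**
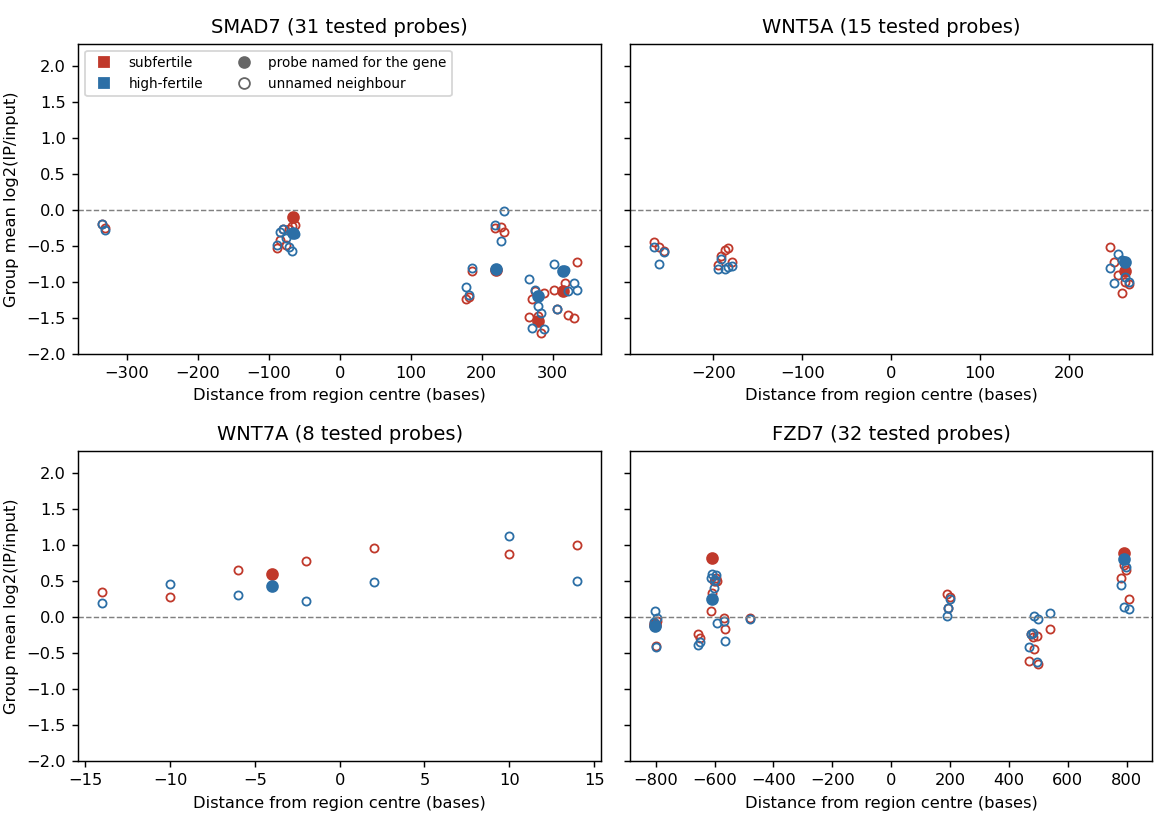
Group means of log2(IP/input) of single probes (subfertile and high-fertile in separate colours; filled, named for the gene; open, unnamed neighbour) against the distance in bases from the centre of a region, for widened gene regions discussed in the text. The array median is 0. In the SMAD7 region every probe has a mean over both groups below 0, from -1.58 to -0.17, and in the WNT7A region every probe lies above 0, from 0.26 to 0.99.

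Of the 9 gene regions, limma called 0 between the later and the first session with the group in the model, against 14% of all gene regions higher and 6.79% lower in the later session. The estimates nearest to a call were SFRP2 at 0.38 (adjusted p = 0.152) and JAG1 at 0.37 (adjusted p = 0.167), both higher in the later session. The balance over the array turned with the processing: centred on the tested probes, 3.53% of all gene regions were higher and 11.1% lower in the later session, with 0 of the 9 called. With no filter on dim probes 2.51% were higher and 54.8% lower, and of the 23 gene regions of these pathways 0 were called higher and 11 lower. The untested probes of these genes did differ in level by session, with medians of -0.16, 1.43 and 0.09 in subfertile bulls 1, 4 and 5 and of 1.92, 1.30 and -0.23 in high-fertile bulls 2, 3 and 5. All untested probes of the array showed the same split. Their medians were 0.05, 0.91 and 0.26 in subfertile bulls 1, 4 and 5 and 1.24, 0.83 and 0.03 in high-fertile bulls 2, 3 and 5. The 3 arrays of the first session were the high ones, in both groups.

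The remaining 10 genes with a tested probe had too few probes for either kind of region. ACVRL1 and BMPR1B, type I receptors of the TGF-beta family, had probe levels of 0.38 and -0.12, and BMP3, a BMP family ligand, had -0.00474. SMAD5 and SMAD9, which carry BMP signals, had -0.42 and -0.12, with IP signal of the SMAD5 probe well above background in 1 of 3 bulls of each group. TGFBRAP1, which binds TGF-beta receptors, had -0.64, -0.51 and -1.59 in the subfertile and -0.50, -0.63 and -1.41 in the high-fertile bulls, a level of -0.88 (limma adjusted p = 0.0181). Its IP signal was well above background in 2 of 3 subfertile bulls and 1 of 3 high-fertile bulls. FGF1 and FGF7 had levels of 0.10 and 0.29, WNT11 had 0.36, and the 2 TGFBR2 probes, of the type II TGF-beta receptor, had 0.32 and -0.49. None of these but TGFBRAP1 passed the test against the median.

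Of 117 other genes of the 4 pathways, 52 were named on the array and 24 had a widened region. Between subfertile and high-fertile sperm limma called 0 of the 24 (0% of 2665 passed). Against the median, 2 of the 24 were lower (25.6% of all widened regions were) and 1 was higher (2.06% of all). Those lower were ID2, a target of BMP signalling (-0.50, adjusted p = 0.00988, 154 probes), and PSENEN, a subunit of the gamma-secretase that cleaves Notch (-0.40, adjusted p = 0.043). The higher one was DTX2, a Notch-binding ubiquitin ligase (0.79, adjusted p = 0.0333, 4 probes). As a check of the sperm label, regions of imprinted genes were examined. Among maternally marked genes, whose imprinted stretches lack methylation in sperm, SGCE was lower (-0.69, adjusted p = 0.00376). PEG10 (0.01), IGF2R (0.28) and MEST (0.06) were not called and lay above the median of all widened regions, -0.19. Of the paternally marked regions, methylated in sperm of other mammals, H19 (0.16), RTL1 (0.11) and MEG3 (-0.08) were not called. RASGRF1 was lower (-0.34, adjusted p = 0.0442). Whether these probes lie in the imprinted stretches is not recorded, so the check does not decide the label. Of the leukocyte and epithelial genes, 3 had a widened region (RUNX3, ESRP1 and DSP) and 0 were called in either comparison.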

How the data were processed

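Sperm DNA of 6 bulls was measured on 6 two-colour Agilent arrays. The deposited scanner tables hold spot intensities and a log10 ratio of IP over input, extracted with Agilent Feature Extraction 10.7.3.1, per the file headers. The deposited series table holds that ratio on the log2 scale, uncentred, as a match of 177439 probes to the scanner ratios showed. From the processed intensities log2(IP/input) was computed here and centred on the median of all non-control probes of each array, without loess or quantile steps. Probes needed input signal well above background on all 6 arrays. Tests were 2-sided limma 3.58.1 fits (R 4.3.3) over all tested features with Benjamini-Hochberg adjustment at 0.05, and were tested on simulated data. The level test set the mean of both group means against the array median. Batches were slides and scan sessions from the file headers, with every scan date after the earliest pooled as the later session. Alternatives were the session or slide as a block, normexp (offset 50), other centring, no filter, at least 2 probes per region, the series table, and each bull left out. Named were all gene regions, up to 5 non-overlapping probes per direction, and the 5 highest and 5 lowest probes and genes. Members and lists were chosen with earlier results of these data known.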

Additional observations from a re-analysis of the deposited data

How the results depend on the processing

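Between subfertile and high-fertile bulls, limma called 0 probes, 0 gene regions and 0 widened regions over the whole array in each fit run that left out a bull, and in those with other background correction, centring or blocks. The later session alone (2 subfertile bulls against 1 high-fertile bull, which is assumed to vary like the others) gave 34 probes, 1 gene region and 10 widened regions, with 0 of these genes among them. Estimates of subfertile minus high-fertile that turned direction were FZD1 at 0.066, FZD10 at 0.11 and SFRP2 at 0.021 after normexp, FZD7 at -0.099 with no filter, FZD1 at 0.067, FZD10 at 0.065 and SMAD7 at 0.13 in the later session, TGFB2 at 0.23 when widened, FZD7 at -0.064 and TGFB2 at 0.087 when widened with the session block, and FZD7 at -0.00042, SFRP2 at 0.011 and TGFB2 at 0.30 over the unnamed neighbours alone. The FGF14 probe turned to -0.075 after normexp. Leaving out each bull gave ranges of -0.29 to 0.062 for SMAD7, -0.24 to 0.047 for FZD10 and -0.19 to 0.049 for WNT2B. Against the array median, 19596 probes were called, 38249 with the session block, 30059 after normexp and 1993 to 21497 with a bull left out. For gene regions the count was 155, and 323 with the session block, 268 after normexp, 61 centred on the tested probes, 3 with no filter, 1391 with no filter and the block, 737 when widened, 1504 when widened with the block, 709 over unnamed neighbours alone and 27 to 194 with a bull left out. For widened regions it was 737, and 1504 with the session block and 204 to 1061 with a bull left out. Levels that turned direction were FZD10 at 0.020 and WNT2 at 0.096 when centred on the tested probes, with or without the block, FZD10 at 0.065 and WNT2 at 0.16 with no filter, with or without the block, TGFB2 at -0.016 over unnamed neighbours and, when widened, SMAD3 at -0.014 and TGFB2 at -0.019 after normexp and GDF6 at 0.099, FST at 0.050, WNT2B at 0.042, SFRP4 at 0.10 and WNT2 at 0.11 when centred on the tested probes; WNT2 ranged from -0.13 to 0.027 with a bull left out. Between scan sessions 153 gene regions were called, 1596 with no filter, 388 with at least 2 probes and 0 to 249 with a bull left out. The causes of these shifts were not tested, beyond the number of features tested. The widened regions, the unnamed neighbours and the fits that join a filter or centring with the session block were chosen after seeing the data. No paired analysis was possible because the groups share 1 replicate number (5), which only names bulls. With 3 arrays a group and IP signal near background at many probes of the first session, small differences were not detectable.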

Other observations

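Among the untested probes, whose input signal was not well above background on every array, 1 each of SFRP2 and FZD10 is given here, both named after their values were seen. The untested probes of these genes had medians of 1.43, 1.92 and 1.30 on the arrays of the first session (subfertile bull 4 and high-fertile bulls 2 and 3), so values up to about that size there are usual for such probes. The SFRP2 probe at chr17:4155803-4155862 had 1.59, 1.40 and 1.37 in subfertile bulls 1, 4 and 5 and 0.44, -0.14 and 1.47 in high-fertile bulls 2, 3 and 5, with input above background on 3 of the 6 arrays. High-fertile bull 5 lay among the subfertile bulls. The FZD10 probe at chr17:49447093-49447152 had 1.20, 0.49 and 0.77 in the subfertile and 1.04, 0.53 and 1.14 in the high-fertile bulls, above the array median in all 6.

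The DTX2 region, of a Notch-binding ubiquitin ligase, had 0.80, 0.09 and 1.53 in the subfertile and 0.38, 0.19 and 1.77 in the high-fertile bulls over 4 probes. The 3 bulls of the later session were the high ones. The ID2 region had -0.40, -0.58 and -0.59 in the subfertile and -0.49, -0.30 and -0.61 in the high-fertile bulls over 154 probes, below the median in all 6.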
